A study of Mus musculus with 14 samples.

Results

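Autophagy genes were followed in transplanted hematopoietic stem cells (HSCs) of the mouse, in 2 separate comparisons: Clu knockout in old HSCs and donor age. The 9 genes were listed by name: Sqstm1, Ulk1, Rb1cc1, Atg4c, Atg2a, Clec16a, Trp53inp2, Wac and Map1lc3b. They are 9 of the 1573 genes with values. The knockout tables hold 583 genes and 8 of the 9, the age tables hold 1043 genes and only Map1lc3b, and 0 of the 9 are among the 53 genes held in both.

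In the first experiment, oHSCs of 24-month-old Rosa26-Cas9 knock-in mice were infected with an mCherry lentivirus carrying guides against Clu (o_sgClu, 4 libraries, here sgClu) or a control guide (o_sgCtrl, 3 libraries, here sgCtrl), so both groups carry Cas9 and a vector. In the second, HSCs came from old (o_Tx, 4 libraries, here oHSCs) or young donors (y_Tx, 3 libraries, here yHSCs), and the labels name no guide. The study used C57BL/6J mice older than 18 months and of 2 months, but the strain and exact age of the donors of these libraries are not given in the sources used here. All were transplanted into lethally irradiated CD45.1 mice of 2 months, and donor-derived HSCs were sorted from the marrow 4 months later. Since the guides to Clu were pooled, each sgClu library is a mixture of edits, and the labels do not say that replicates are separate animals, so p-values measure only the spread between libraries, which may be technical. The values, from SMART-Seq libraries, are taken as FPKM, fragments scaled to transcript length and to the mapped fragments of the library.

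Macroautophagy encloses cytoplasm, damaged organelles or tagged proteins in a double membrane and delivers them to the lysosome. The ULK1 kinase complex starts the process, a lipid kinase complex and lipid transfer proteins build the membrane, ATG8 proteins of the LC3 and GABARAP families are conjugated to it, and receptors such as p62 bring cargo. In HSCs, autophagy is known for clearing mitochondria and keeping the cells quiescent. Clusterin, the product of Clu, is a secreted chaperone that also has intracellular forms.

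The 3 guides against Clu define what was cut in the sgClu group. They are shown 5′ to 3′ with the adjacent bases read by Cas9 (the PAM) in capitals, and all 3 lie in coding exons of Clu on chromosome 14 of mm10. The first targets chr14:65973360-65973379 on the plus strand in exon 3, the next chr14:65974896-65974915 on the plus strand in exon 4, and the last chr14:65975875-65975894 on the minus strand in exon 5 (exons of transcript ENSMUST00000022616.13).
Clu guide 1: gagattcagaacgccgtccaGGG
Clu guide 2: agtgtgtaacgagaccatgaTGG
Clu guide 3: aacatgttgtggaagctcggAGG
Clu is not among the 583 genes of the knockout tables, so the labels were not checked against it.

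The tables hold only part of the transcriptome, mostly genes that differed between these same libraries, although 2 genes of the knockout tables are listed at 0 in all 7 libraries. A p-value below thus describes a selected gene and is not independent evidence. The listed genes summed to 10841 to 12502 FPKM in sgClu libraries and 17005 to 18573 FPKM in sgCtrl libraries, and sequencing depth is unknown. Of 13 HSC markers, only Procr and Fgd5 have values, so the labelled cell type could not be checked further. In bulk RNA, fewer cells of a type and less RNA per cell cannot be told apart.

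Of the 8 autophagy genes with values, 5 (Sqstm1, Ulk1, Rb1cc1, Trp53inp2 and Wac) were lower in sgClu than in sgCtrl oHSCs and 2 (Atg4c and Clec16a) were higher, while Atg2a did not pass the limits. After 3 scalings to the listed genes only 1, 0 and 1 genes were lower, as Ulk1 and Rb1cc1 lost their calls and Sqstm1 and Wac turned slightly positive, and 2 were higher each time. A gene passed when limma on log2(FPKM + 1), two-sided, gave an unadjusted p under 0.05 and an absolute log2 fold change over 0.5. With the p-value adjusted over the 583 genes, limma gave the same counts, 5 lower and 2 higher. Over the whole table, mostly selected for a difference, adjustment moved the counts only from 292 to 281 lower and from 90 to 84 higher. The same counts among the autophagy genes are therefore no further support. Among all 583 genes, 50.1% were lower and 15.4% higher by the same limits, and the median log2 fold change was -0.52 over all genes and -0.53 over the 8. The 8 genes thus divided much as the table did. The count of lower genes was 3 without sgCtrl replicate 1 or sgClu replicate 2, and that of higher genes was 0 without sgCtrl replicate 2. The groups did not overlap, with sgClu lower, for 6 of the 8 genes, against 52.5% of the table, and with sgClu higher for 1, against 14.2%.

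**Figure D1:**
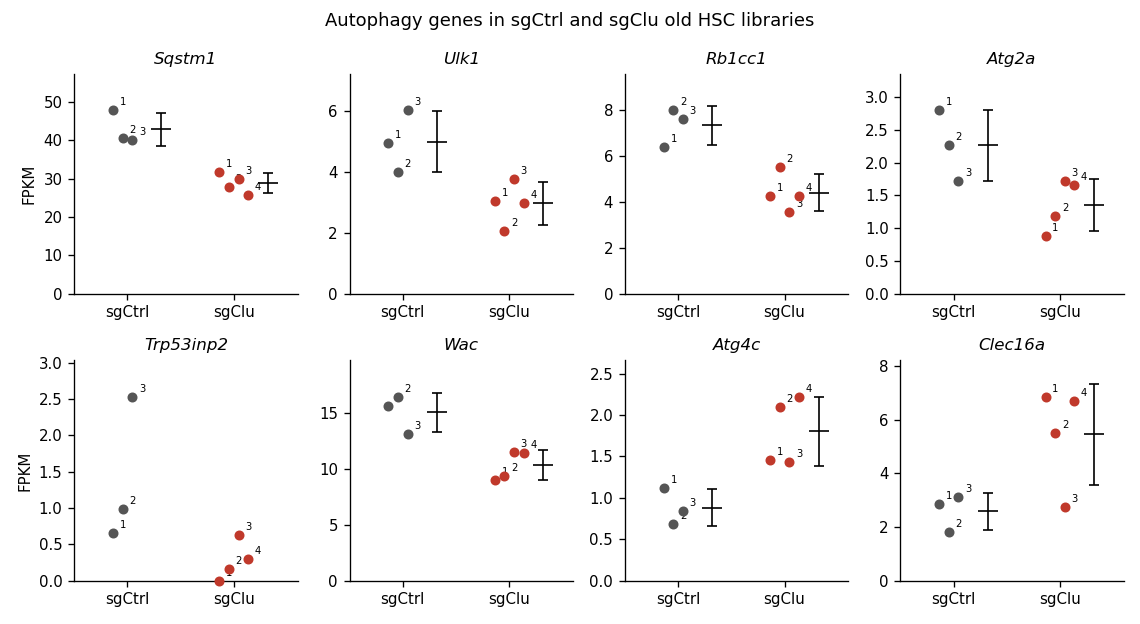
FPKM of the 8 autophagy genes (vertical axes, from 0) in each sgCtrl and sgClu library; the number beside a point is the replicate, and the bar is the mean with its SD, left out for Trp53inp2, which is listed at 0 in sgClu replicate 1. The sgClu points lie below the sgCtrl points in 6 panels (barely so for Atg2a), above them for Atg4c, and overlap them for Clec16a, in values that are not rescaled to the listed genes.

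Sqstm1 encodes p62, the receptor that binds ubiquitinated cargo and ATG8 proteins. It lies on the minus strand of mm10 at chr11:50199366-50210827. It measured 31.6, 27.9, 30.0 and 25.7 FPKM in sgClu replicates 1 to 4 and 47.8, 40.7 and 40.0 FPKM in sgCtrl replicates 1 to 3. Every sgClu library was below every sgCtrl library, and sgCtrl replicate 1 stood highest. The means were 28.8 ± 2.57 FPKM (SD, n = 4) and 42.8 ± 4.33 FPKM (SD, n = 3), a ratio of 0.673, and the log2 fold change was -0.56 (SE 0.13, 95% interval -0.86 to -0.25, limma adjusted p = 0.0110). An exact permutation test of the group means over all 35 groupings gave p = 0.0571 with the smaller tail doubled, the smallest it allows, and p = 0.0286 by size. Without sgCtrl replicate 1 the log2 fold change was -0.48 and no longer past the limits. Exons of Mrnip on the opposite strand overlap Sqstm1 and share 20.4% of the 50-base words of its longest transcript, and the counting is not stated to have used strand, so reads of the genes cannot be told apart there.

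Ulk1 and Rb1cc1 encode the kinase of the initiation complex and its scaffold, FIP200, and both were lower in sgClu oHSCs. Ulk1, on the minus strand at chr5:110784488-110810097, measured 3.05, 2.04, 3.77 and 2.97 FPKM in sgClu and 4.93, 4.01 and 6.01 FPKM in sgCtrl. The groups did not overlap, although sgClu replicate 3 came close to sgCtrl replicate 2. The means of 2.96 ± 0.71 FPKM (SD, n = 4) and 4.98 ± 1.004 FPKM (SD, n = 3) gave a log2 fold change of -0.60 (SE 0.19, 95% interval -1.03 to -0.17, limma adjusted p = 0.0250). It fell out of the limits, at -0.48 each time, without sgClu replicate 2 or sgCtrl replicate 3.

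Rb1cc1, on the plus strand at chr1:6206197-6276648, measured 4.25, 5.52, 3.57 and 4.26 FPKM in sgClu and 6.38, 7.999 and 7.64 FPKM in sgCtrl. Its groups were also separate, with sgClu replicate 2 the highest of its group. The log2 fold change was -0.63 (SE 0.16, 95% interval -0.99 to -0.28, limma adjusted p = 0.0124), from means of 4.40 ± 0.81 FPKM (SD, n = 4) and 7.34 ± 0.85 FPKM (SD, n = 3). The exact permutation test gave p = 0.0571 by either convention for Ulk1 and for Rb1cc1. Added together, these genes of the initiation complex spanned only 7.23 to 7.56 FPKM over the sgClu libraries, because the library low for Ulk1 was the one high for Rb1cc1, and 11.3 to 13.7 FPKM over the sgCtrl libraries. This sum was looked at with its parts already known and has no test. An antisense transcript, 4732440D04Rik, overlaps exons of Rb1cc1, and 12% of its 50-base words occur elsewhere in the annotation.

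Atg2a encodes a lipid transfer protein that feeds the growing membrane from the endoplasmic reticulum. It lies on the plus strand at chr19:6241668-6262335 and measured 0.878, 1.18, 1.72 and 1.65 FPKM in sgClu and 2.80, 2.27 and 1.72 FPKM in sgCtrl. The groups touched at sgClu replicate 3 and sgCtrl replicate 3, which round to the same value. The log2 fold change of -0.47 (SE 0.18, 95% interval -0.89 to -0.05, limma adjusted p = 0.0453) was under the size limit. It passed the limits with a pseudocount of 0.1 (-0.72), where low values weigh more, and without sgCtrl replicate 3 (-0.60), sgClu replicate 3 (-0.54) or sgClu replicate 4 (-0.53).

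Trp53inp2 and Wac encode regulators of autophagosome formation. Trp53inp2, also called DOR, shuttles from the nucleus and binds ATG8 proteins. It lies on the plus strand at chr2:155381059-155389850, is listed at 0 in sgClu replicate 1, and measured 0.160, 0.623 and 0.294 FPKM in sgClu replicates 2 to 4 and 0.657, 0.986 and 2.53 FPKM in sgCtrl. The groups were separate by a narrow margin between sgClu replicate 3 and sgCtrl replicate 1, and sgCtrl replicate 3 stood far above the rest. The log2 fold change was -0.86 (SE 0.28, 95% interval -1.50 to -0.22, limma adjusted p = 0.0271), and it was -0.54 without sgCtrl replicate 3. With a pseudocount of 0.1 it was -2.14, so its size depends on the constant added.

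Wac encodes an adaptor with a WW domain that was found in screens for autophagy genes and also acts with a histone ubiquitin ligase in the nucleus. It lies on the plus strand at chr18:7868832-7929028 and measured 8.95, 9.33, 11.5 and 11.4 FPKM in sgClu and 15.6, 16.4 and 13.1 FPKM in sgCtrl. The sgClu libraries were all lower, with no overlap. Its means were 10.3 ± 1.35 FPKM (SD, n = 4) and 15.0 ± 1.72 FPKM (SD, n = 3), with a log2 fold change of -0.51 (SE 0.15, 95% interval -0.84 to -0.17, limma adjusted p = 0.0198). That value is just past the size limit, and leaving out sgClu replicate 1 or 2, or sgCtrl replicate 1 or 2, brought it to between -0.48 and -0.44 and ended the call. The antisense transcript AC130718.2 overlaps exons of Wac.

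Trp53inp1, a relative of Trp53inp2 that was not among the 9 genes, was the only other gene with values in the knockout tables from a list of 95 genes of the pathway. It measured 0.632, 1.13, 1.098 and 1.41 FPKM in sgClu and 2.87, 1.31 and 1.35 FPKM in sgCtrl. Only sgCtrl replicate 1 stood above the others, the groups overlapped, and limma gave -0.43 (SE 0.22, adjusted p = 0.0951) on the log2 scale, not past the limits.

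Atg4c and Clec16a went the other way. Atg4c encodes one of the ATG4 cysteine proteases, which trim ATG8 proteins before their conjugation and release them from lipid. It lies on the plus strand at chr4:99193934-99259787 and measured 1.46, 2.09, 1.43 and 2.22 FPKM in sgClu and 1.12, 0.678 and 0.838 FPKM in sgCtrl. The sgClu libraries were all higher, with no overlap. The means were 1.80 ± 0.41 FPKM (SD, n = 4) and 0.878 ± 0.22 FPKM (SD, n = 3), a ratio of 2.05, and the log2 fold change was 0.57 (SE 0.16, 95% interval 0.21 to 0.94, limma adjusted p = 0.0180). It dropped to 0.49, out of the limits, without sgCtrl replicate 2, its lowest library. For Atg4c and for Wac the exact permutation test gave p = 0.0571 with the smaller tail doubled and p = 0.0286 by size.

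Clec16a encodes a lysosome-associated protein that controls Parkin-dependent mitophagy, the removal of damaged mitochondria, through the ubiquitin ligase Nrdp1. It lies on the plus strand at chr16:10545339-10744878 and measured 6.84, 5.49, 2.76 and 6.70 FPKM in sgClu and 2.85, 1.81 and 3.12 FPKM in sgCtrl. In sgClu replicate 3 the level lay within the sgCtrl range, and the other 3 sgClu libraries were above it. The means were 5.45 ± 1.89 FPKM (SD, n = 4) and 2.59 ± 0.69 FPKM (SD, n = 3), a ratio of 2.102. The log2 fold change was 0.81 (SE 0.28, 95% interval 0.17 to 1.44, limma adjusted p = 0.0322), while the exact permutation test gave p = 0.171 with the smaller tail doubled and p = 0.114 by size. It was 0.64 and not past the limits without sgCtrl replicate 2, so without that library 0 of the 8 genes were higher. No word of 50 bases of Clec16a occurs in another gene, and Atg4c shares 2.59%.

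The order of the levels, which FPKM allows to be compared between genes of different length, was not the same in the groups. In sgCtrl, Sqstm1 was the most abundant and Atg4c the least in mean FPKM, with Wac, Rb1cc1, Ulk1, Clec16a, Atg2a and Trp53inp2 between them. There the range of Clec16a (1.81 to 3.12 FPKM) was below those of Ulk1 (4.01 to 6.01) and Rb1cc1 (6.38 to 7.999), and Atg4c (0.678 to 1.12) below Atg2a (1.72 to 2.80). In sgClu these neighbours overlapped, with Clec16a from 2.76 to 6.84 against 3.57 to 5.52 FPKM for Rb1cc1, and Atg4c from 1.43 to 2.22 against 0.878 to 1.72 FPKM for Atg2a.

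**Figure D2:**
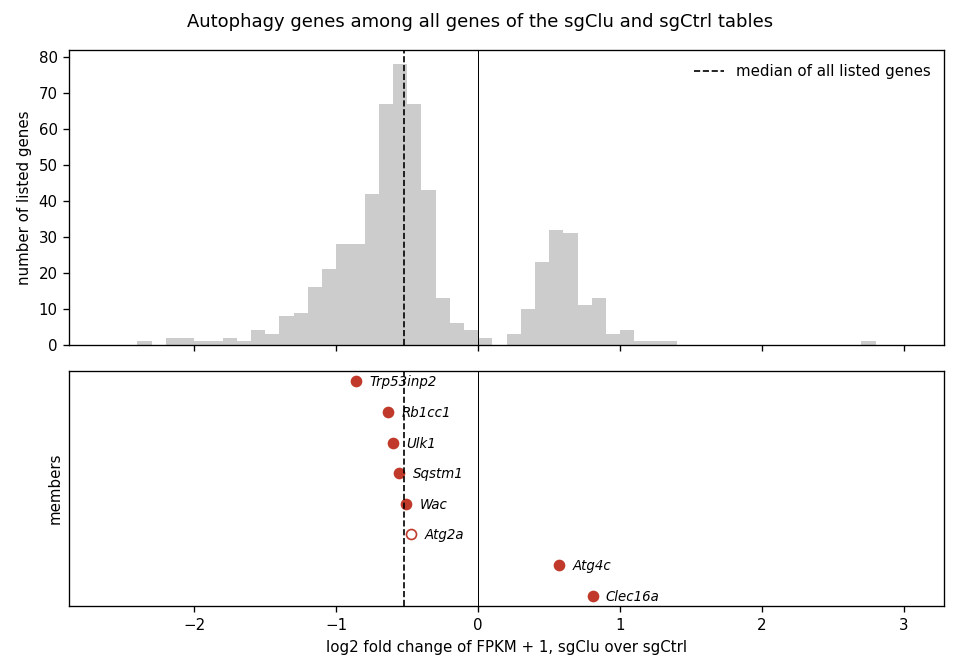
Top, number of genes of the knockout tables (vertical axis) by log2 fold change of FPKM + 1, sgClu over sgCtrl (horizontal axis); bottom, the 8 autophagy genes on the same axis, filled where past the limits. The dashed line is the median of the 583 genes, -0.52, and Rb1cc1, Ulk1, Sqstm1, Wac and Atg2a lie near it, of which Sqstm1 and Wac turned positive after scaling, with Trp53inp2 further down, while Atg4c and Clec16a lie in the separate group of higher genes.

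Within the table, 445 of the 583 log2 fold changes were negative, and their range ran from -2.33 to 2.80. Counted from the lowest, Trp53inp2 was at rank 110, Rb1cc1 at 211, Ulk1 at 236, Sqstm1 at 264, Wac at 312 and Atg2a at 335. Clec16a, at rank 560, was near the upper end. The genes nearest to Sqstm1 in profile, by the mean absolute difference of log2(FPKM + 1) deviations over the 7 libraries, were Zfp820 (0.0594), Myct1 (0.0623) and Gm45223 (0.0762), against a median of 0.272 over the 515 genes compared. For Ulk1 they were Tut7 (0.0779), Rock2 (0.0799) and Neat1 (0.0989), against a median of 0.307.

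Because most listed genes were lower in sgClu, each library was also scaled to the listed genes, which removes a shift shared by them. The median log2 fold change of the 583 genes then moved from -0.52 to -0.09 by median of ratios, -0.07 by TMM and -0.12 by column totals. Relative to the table, most of the lower genes were near 0. Sqstm1 went to 0.059, 0.076 and 0.017 and Wac to 0.078, 0.094 and 0.038 under the 3 scalings, while Ulk1 went to -0.10, -0.09 and -0.14 and Rb1cc1 to -0.10, -0.08 and -0.13. Trp53inp2, at -0.63, -0.62 and -0.65, was the only lower gene that stayed past the limits, by median of ratios and column totals but not by TMM. Those calls were at the edge, with unadjusted limma p of 0.0486 by median of ratios and 0.0451 by column totals. The limma adjusted p was 0.130 and 0.116, and the levels of this gene are low. Atg4c (0.91, 0.92 and 0.88) and Clec16a (1.29, 1.30 and 1.25) were past them under all 3 scalings, with larger values than as deposited. The listed genes were mostly selected for a difference and mostly lower in sgClu, so scaling to them raises log2 fold changes in general. The larger values of these genes and the lost calls of the lower ones follow largely from that. They do not show which scaling is right.

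**Figure D3:**
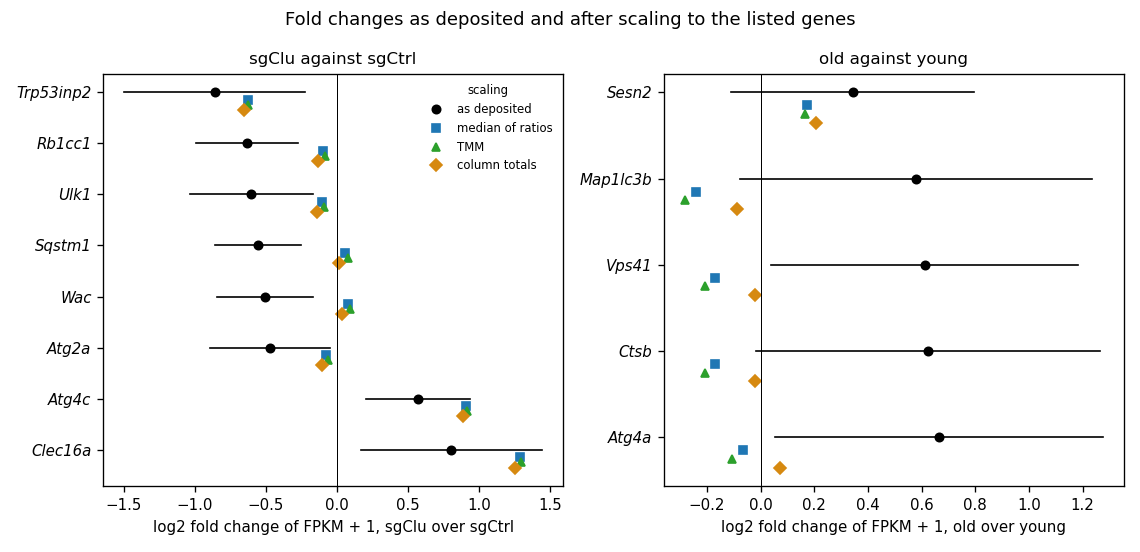
Log2 fold change of FPKM + 1 (horizontal axes) as deposited (black, with its 95% interval) and after 3 scalings of each library to the listed genes, for sgClu against sgCtrl (left) and oHSCs against yHSCs (right). On the left Sqstm1 and Wac turn slightly positive and Atg4c and Clec16a move further up; on the right Map1lc3b, Vps41 and Ctsb turn negative under all 3 scalings and Atg4a under 2 of them.

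Ratios of a pair of genes in one library do not depend on how libraries are scaled. The pairs were picked with their values known and carry no test. Atg4c over Rb1cc1 was 0.344 to 0.520 in sgClu and 0.0847 to 0.175 in sgCtrl, and Clec16a over Sqstm1 was 0.0920 to 0.261 in sgClu and 0.0445 to 0.0780 in sgCtrl, and neither ratio overlapped between the groups. Each of these pairs sets a gene called higher over one called lower, so their separation largely restates those calls. Between genes that went the same way the ratios did overlap. Ulk1 over Rb1cc1 was 0.370 to 1.06 in sgClu and 0.501 to 0.787 in sgCtrl, and Wac over Sqstm1 was 0.283 to 0.444 and 0.326 to 0.403.

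**Figure D4:**
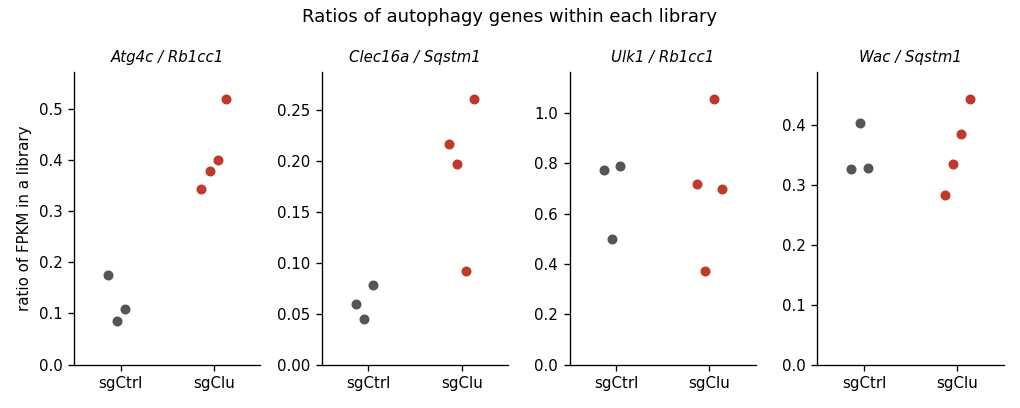
Ratio of the FPKM of 2 genes within each library (vertical axes, from 0), for sgCtrl and sgClu; each point is a library. Atg4c over Rb1cc1 and Clec16a over Sqstm1, pairs picked from genes called in opposite directions, do not overlap between the groups, and the other 2 do.

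Other gene groups moved in the same libraries. Of all 583 listed genes, mostly selected for a difference, 50.1% were lower and 15.4% higher in sgClu by the same limits. The sums below are of values as deposited and were not scaled to the listed genes. Of 14 immediate early and dissociation stress genes, 13 have values and all 13 were lower in sgClu, with a summed level of 902 to 1269 FPKM against 1620 to 2332 FPKM in sgCtrl. Both monocyte markers with values, Cd14 and Ly6c2 of a list of 8, were lower, at 109.7 to 178.3 FPKM summed against 245.0 to 337.3 FPKM. The HSC markers Procr and Fgd5 summed to 5.14 to 12.2 FPKM in sgClu and 13.2 to 23.2 FPKM in sgCtrl, and 1 of them passed the limits. Of 11 neutrophil markers, S100a8 and S100a9 summed to 8.42 to 51.8 FPKM against 16.1 to 176.8 FPKM, and of 9 mast cell markers Tpsb2 and Mcpt4 are listed at 0 in all sgClu libraries and summed to 0 to 42.5 FPKM in sgCtrl. Their part in the autophagy values was not tested.

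The promoters of Sqstm1, the most abundant of the lower genes, and Clec16a, the higher gene with the largest fold change, are shown to set the groups side by side. The windows are from RefSeq (GRCm38.p6) and run from 250 bases before the start site, 5′ to 3′ on the gene's strand, to 300 bases in all, at chr11:50210771-50211070 on the minus strand and chr16:10545089-10545388 on the plus strand. Capitals mark the core of the antioxidant response element, TGANNNNGC on either strand.
Sqstm1 promoter: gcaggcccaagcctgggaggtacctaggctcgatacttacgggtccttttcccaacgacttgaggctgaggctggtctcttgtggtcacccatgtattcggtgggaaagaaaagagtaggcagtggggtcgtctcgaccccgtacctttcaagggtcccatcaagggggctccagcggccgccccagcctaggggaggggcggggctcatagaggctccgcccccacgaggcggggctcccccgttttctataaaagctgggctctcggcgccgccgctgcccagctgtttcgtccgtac
Clec16a promoter: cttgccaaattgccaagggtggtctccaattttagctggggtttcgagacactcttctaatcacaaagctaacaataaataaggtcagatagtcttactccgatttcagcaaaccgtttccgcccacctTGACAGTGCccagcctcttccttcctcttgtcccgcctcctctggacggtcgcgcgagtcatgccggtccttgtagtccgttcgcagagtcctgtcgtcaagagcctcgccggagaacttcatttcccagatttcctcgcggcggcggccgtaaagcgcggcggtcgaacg
The Sqstm1 window holds none of the 5 words searched, and the Clec16a window holds the antioxidant core at position -121. Positions count the start site as 1, with no position 0. Windows of Ulk1, Atg2a and Trp53inp2 hold none of the words either, and 1 of the 2 windows of Atg4c holds the antioxidant core, at -113. No window of Rb1cc1 or Wac is reported, so the lower genes are not all covered. That core is in 41.3% of all 32851 mouse promoters, so its presence in a window is common. The other words, CACGTG (the E-box bound by TFEB), TGANTCA (AP-1), TGATGNAAN (ATF4) and TGTTTAC (FOXO), are in 7.15%, 7.81%, 3.95% and 3.65% of them. A match or its absence here is a description of these letters and says nothing of binding.

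In the age comparison, Map1lc3b was the only gene of the 9 with values. Its difference between oHSCs and yHSCs was not past the limits, although it passed them when replicate numbers were used as pairs. The 1043 genes of the age tables equal in number those that the study called upregulated in oHSCs with DESeq2. The study thus probably called Map1lc3b higher, with another method on counts. Map1lc3b encodes LC3B, the ATG8 protein whose lipid-bound form marks autophagosomes, and lies on the plus strand at chr8:121590361-121598760. It measured 234.0, 222.2, 212.2 and 177.3 FPKM in oHSC replicates 1 to 4 and 223.5, 135.2 and 91.6 FPKM in yHSC replicates 1 to 3. The old libraries lay close together, while the young ones were spread widely, and yHSC replicate 1 was above oHSC replicates 2 to 4. The means were 211.4 ± 24.5 FPKM (SD, n = 4) and 150.1 ± 67.2 FPKM (SD, n = 3), a ratio of 1.41. The log2 fold change was 0.58 (SE 0.30, 95% interval -0.08 to 1.24, limma adjusted p = 0.103), and the exact permutation test gave p = 0.229 with the smaller tail doubled and p = 0.171 by size.

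Single yHSC libraries decided the value of Map1lc3b. It was 0.91 without yHSC replicate 1 and then past the limits, and 0.27 without yHSC replicate 3. With the replicate number as a block, which leaves out oHSC replicate 4 because it has no partner, it was 0.66 (SE 0.27) and past the limits at an unadjusted limma p of 0.0436 with an adjusted p of 0.0607, and over all alternatives the limma adjusted p ran from 0.0293 to 0.927. Scaling to the listed genes turned it negative, to -0.24, -0.28 and -0.087, as the median of the 1043 genes moved from 0.70 to 0.07 by median of ratios, 0.04 by TMM and 0.19 by column totals. At rank 324 of 1043 from the lowest, its log2 fold change was under the median of the table. Its nearest profiles were those of Mettl22 (mean absolute difference 0.0792), Ube2n (0.0816) and Acd (0.0927), against a median of 0.330 over 934 genes. Exons of Zcchc14 on the opposite strand overlap Map1lc3b, and 9.39% of its 50-base words occur in other genes, 5.67% in Gm6055.

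**Figure D5:**
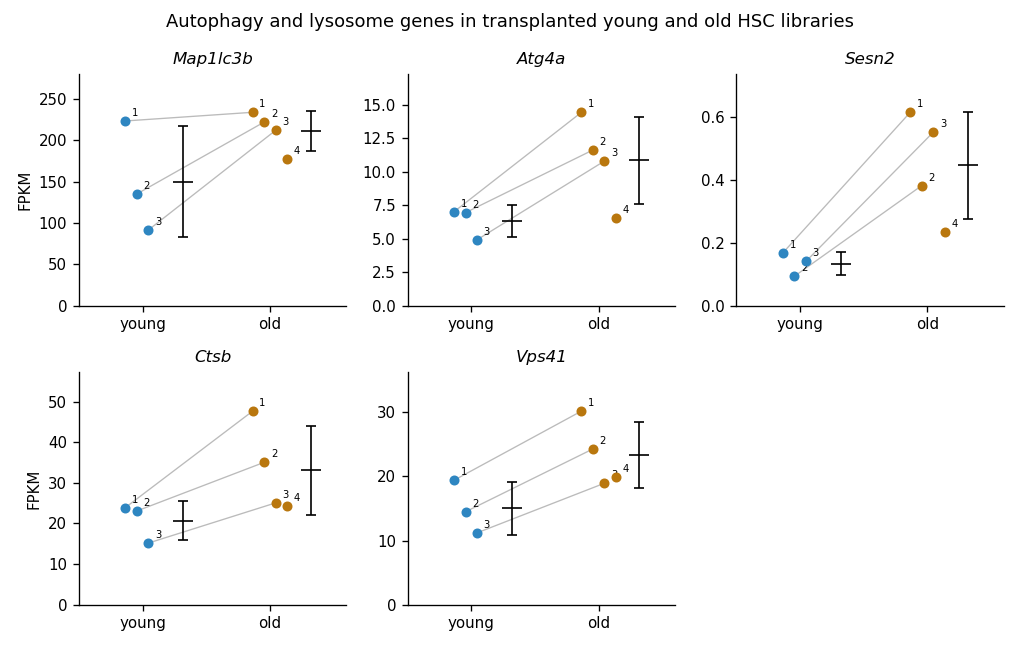
FPKM (vertical axes, from 0) of Map1lc3b and 4 other genes of the pathway list in each yHSC and oHSC library; numbers are replicates, grey lines join equal numbers, and bars are the mean with its SD. For Map1lc3b yHSC replicate 1 sits among the old libraries, while Ctsb and Sesn2 do not overlap between the groups in these values; after scaling to the listed genes Map1lc3b, Ctsb and Vps41 turned negative under all 3 scalings and Atg4a under 2.

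The Map1lc3b promoter is shown because it is the ATG8 gene of the data and the only one of the windows printed with the antioxidant core more than once. It spans chr8:121590188-121590487 of GRCm38.p6 on the plus strand, with the cores in capitals, at positions -248 and 5.
Map1lc3b promoter: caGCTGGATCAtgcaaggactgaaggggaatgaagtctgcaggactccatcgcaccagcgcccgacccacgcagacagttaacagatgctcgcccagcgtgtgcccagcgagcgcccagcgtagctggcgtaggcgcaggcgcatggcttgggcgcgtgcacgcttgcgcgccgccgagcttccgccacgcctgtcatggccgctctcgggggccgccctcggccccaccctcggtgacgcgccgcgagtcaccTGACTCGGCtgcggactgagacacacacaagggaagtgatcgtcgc
It holds none of the other 4 words. Of further pathway genes with values in the age comparison, Sesn2 holds the antioxidant core at -36 and a window of Atg4a at 22. Another window of Atg4a and that of Vps41 hold none of the words.

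Of the 95 pathway genes, 5 have values in the age tables: 0 were lower and 2 (Atg4a and Vps41) were higher in oHSCs as deposited, although Vps41 turned negative under 3 scalings and Atg4a under 2. Among all 1043 genes, 0.959% were lower and 62.5% higher by the same limits. The study called 1043 genes upregulated in transplanted oHSCs, so the age tables are probably that list, these 5 included. Being higher was then mostly set by selection, and 0 lower genes is no result about the pathway. The median log2 fold change was 0.61 over the 5 genes and 0.70 over the table, in which 37 of the 1043 log2 fold changes were negative. The oHSC libraries lay above all yHSC libraries for 2 of the 5 (Ctsb and Sesn2) and below them for 0, against 49.7% and 1.63% of the table. With replicate numbers as pairs 4 of the 5 passed, and with limma's adjusted p-values 0 did, against 2 at the unadjusted limit. None passed without oHSC replicate 1 or 2 or yHSC replicate 2 or 3.

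Ctsb encodes the lysosomal protease cathepsin B, lies at chr14:63122462-63145923, and measured 47.6, 35.0, 25.0 and 24.4 FPKM in oHSCs and 23.9, 23.04 and 15.1 FPKM in yHSCs. The groups were separate by a narrow margin, and limma gave 0.62 (SE 0.29, adjusted p = 0.0828) on the log2 scale, which passed only with the block (0.75) or without oHSC replicate 3 (0.73) or 4 (0.75). Fdft1 holds 15.4% of its 50-base words, and its exons overlap on the opposite strand. Vps41, a subunit of the complex that tethers vesicles to lysosomes, lies at chr13:18717286-18866811 and measured 30.2, 24.3, 18.9 and 19.9 FPKM in oHSCs and 19.4, 14.5 and 11.2 FPKM in yHSCs. Its groups overlapped at oHSC replicate 3 and yHSC replicate 1, and limma gave 0.61 (SE 0.26, adjusted p = 0.0676) on the log2 scale, past the limits with all libraries but not without oHSC replicate 1 or 2 or yHSC replicate 2 or 3 (0.43 to 0.60).

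Atg4a, of the same protease family as Atg4c, lies at chrX:140956907-141164270 and measured 14.4, 11.6, 10.8 and 6.51 FPKM in oHSCs and 7.02, 6.95 and 4.92 FPKM in yHSCs. Only oHSC replicate 4 fell among the young libraries, and limma gave 0.67 (SE 0.27, adjusted p = 0.0648) on the log2 scale, past the limits with all libraries but not without oHSC replicate 1, 2 or 3 or yHSC replicate 2 or 3 (0.52 to 0.73). The pseudogene Atg4a-ps holds 63.6% of its 50-base words, which leaves its value uncertain. Sesn2, a stress sensor upstream of ULK1, lies at chr4:132492032-132510501 and measured 0.615, 0.382, 0.551 and 0.235 FPKM in oHSCs and 0.168, 0.0937 and 0.141 FPKM in yHSCs. The groups did not overlap and the ratio of the means was 3.32, but on the log2(FPKM + 1) scale, which understates the change of such low values, limma gave 0.34 (SE 0.20, adjusted p = 0.144), and with a pseudocount of 0.1 it was 1.17 and past the limits.

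Other measures with values also differed between these libraries. Of all 1043 listed genes, 62.5% were higher and 0.959% lower in oHSCs by the same limits. The study counted as many genes as upregulated in oHSCs, so markers that fell or stayed level would mostly be missing here. The listed genes summed to 71628 to 84123 FPKM in oHSCs and 42199 to 54607 FPKM in yHSCs, lowest in yHSC replicate 3, and 5 to 12 listed genes were at 0 in the old libraries against 73 to 96 in the young ones. The neutrophil markers with values, 3 of 11, summed to 6615 to 9710 FPKM against 3321 to 4217 FPKM and were all higher in oHSCs, as were 6 of 9 mast cell markers, at 486.7 to 760.9 against 225.9 to 355.6 FPKM, with Cma1, Tpsb2, Tpsab1 and Mcpt4 at 0 in every yHSC library. Of 11 erythroid markers 5 have values, 4 of them higher, at 1527 to 2418 FPKM summed against 808.7 to 1120.1 FPKM, and the HSC markers Slamf1 and Procr were both higher, at 11.8 to 20.7 against 4.42 to 11.5 FPKM. Of 6 megakaryocyte markers 4 have values, 3 of them higher, at 268.7 to 497.8 against 175.0 to 240.9 FPKM, and of 8 monocyte markers 3 have values, 2 of them higher, at 263.7 to 427.2 against 168.1 to 289.4 FPKM. The only B cell, T and NK cell and stress genes with values, Igll1, Klrb1c and Hspa1b, were higher too, at up to 2.69, 3.14 and 2.29 FPKM in oHSCs. The mitochondrially encoded mt-Co2 and mt-Co3 summed to 3020 to 4035 FPKM in oHSCs and 4547 to 5821 FPKM in yHSCs, and 1 of them passed as lower. Their part in the values of Map1lc3b and the other pathway genes was not tested.

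By role, the knockout tables hold 2 of 5 genes of the initiation complex, 1 of 10 of lipid transfer, 1 of 11 of ATG8 conjugation, 1 of 6 cargo receptors, 1 of 9 of mitophagy and 3 of 15 regulators. They hold 0 of 7 genes of the lipid kinase complex, 0 of 5 ATG8 genes, 0 of 14 of nutrient signalling and 0 of 13 of the lysosome. The age tables hold 1 of 11 of conjugation, 1 of 5 ATG8 genes, 1 of 14 of nutrient signalling and 2 of 13 of the lysosome, and 0 of the 95 genes have values in both. The knockout and age tables were normalized separately, so levels were not compared between them.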

How the data were processed

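RNA-seq values of 14 libraries were analysed. The authors trimmed reads (TrimGalore), aligned them to mm10 (Hisat2), counted them on genes (FeatureCounts) and called genes with DESeq2. The authors' deposited values are read as FPKM, scaled to transcript length and library size; their headers name no unit, and TPM cannot be told apart. The annotation and the step from counts to these values are not given in the sources used here. Depth is unknown. All value columns were used. The 9 genes and the gene lists were chosen with earlier results of these data known.

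Each pair of tables was fitted whole with limma 3.58.1 (R 4.3.3) on log2(FPKM + 1), tested on simulated data, with Benjamini-Hochberg adjustment over the table and calls at an unadjusted p of 0.05 and an absolute log2 fold change of 0.5. DESeq2 could not be run without counts. Exact permutation tests used 35 groupings (SciPy 1.17.1). No enrichment was tested, as the tables hold a selected part of the genes. The genes named are the 9, the genes with values among 95 pathway genes (1 more pathway gene is not reported here), and the 3 nearest profiles of Sqstm1, Ulk1 and Map1lc3b. Alternatives were 3 scalings (median of ratios, TMM, column totals), a pseudocount of 0.1, a filter on low values (1 FPKM in a group mean), adjusted p-values, a mean-variance trend, a replicate block and each library left out.

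Same-numbered age libraries deviated together to some degree (correlations 0.405, 0.163 and 0.161 across genes). Differently numbered ones ran from -0.316 to 0.192, the highest for oHSC replicate 4 with yHSC replicate 3, above the lower same-numbered values. These numbers, given in the labels, were treated as pairs only in the replicate block, while the main fits and permutation tests were unpaired. Same-numbered knockout libraries did not deviate together.

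Positions and shared 50-base words come from GENCODE M21 (GRCm38), promoters from RefSeq GRCm38.p6, and guide sequences from the study's supplementary tables. Protein sequences were not used here.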

Additional observations from a re-analysis of the deposited data

How the results depend on the processing

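Each library was scaled to the listed genes. By median of ratios, TMM and column totals, the number of lower autophagy genes in sgClu went from 5 to 1, 0 and 1, and the number of pathway genes higher in oHSCs from 2 to 0, 0 and 0. Sqstm1 turned to 0.059, 0.076 and 0.017, Wac to 0.078, 0.094 and 0.038, Map1lc3b to -0.24, -0.28 and -0.087, Ctsb to -0.17, -0.21 and -0.020, Vps41 to -0.17, -0.21 and -0.023, and Atg4a to -0.068 and -0.105 by the first 2. By construction these scalings remove a shift shared by the listed genes, and these were mostly selected for a difference.

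With each library left out in turn, 3 to 6 genes were lower in sgClu (3 without sgCtrl replicate 1 or sgClu replicate 2) and 0 to 2 higher (0 without sgCtrl replicate 2), 0 to 3 pathway genes were higher in oHSCs (0 without oHSC replicate 1 or 2 or yHSC replicate 2 or 3), and Map1lc3b ranged from 0.27 to 0.91. With limma's adjusted p-values 0 pathway genes were higher in oHSCs, and with a pseudocount of 0.1 or a mean-variance trend 1, against 2 at the unadjusted limit. Sesn2 has no value under the filter on low values.

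The replicate block left 4 pathway genes higher in oHSCs and Map1lc3b at 0.66 and past the limits. For the knockout libraries, whose same-numbered correlations were -0.103, 0.073 and 0.058, the block kept 5 lower genes and 1 higher, as Clec16a (0.70) did not pass. The block moved no other call of the named genes but that of Ctsb. Low levels, an unknown depth and 3 libraries in the smaller group limit what these values can show.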
